A study of Mus musculus with 18 samples.

Results

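Trimethylation of histone H3 at lysine 27 (H3K27me3) was examined at 211 regions that lay away from protein-coding genes, of 2285 autosomal regions that were called in some but not all embryos of a mouse series on maternal vitamin C. The mark was measured by CUT&Tag, in which an antibody tethers a transposase to marked chromatin, in single headfolds of embryonic day 8.5. Every embryo carried the genotype Gulo-/-, so none could make vitamin C, and the 4 groups were 129 and B6 embryos with vitamin C (3.3 g/l in the drinking water) and 129 and B6 embryos without it. Each group had 3 peak lists, from 2 female and 1 male embryos, and each list held the peaks of 1 embryo. The other samples of the 18 in the series, 4 with the control antibody IgG and 2 of B6 with the H3K27me3 antibody, were not analysed here.

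Peaks of the 12 lists that overlapped by at least 1 bp were merged into 4948 regions of chromosomes 1 to 19 (mm10). A region was taken when 4 to 11 lists held it and when it overlapped no protein-coding gene span of RefSeq extended by 5 kb at each end. The regions were thus chosen by measured values, the number of lists with a peak, and that number is given as a description. Of the 211 regions, 37 were called in 4 lists, 33 in 5, 32 in 6, 22 in 7, 19 in 8, 24 in 9, 19 in 10 and 25 in 11. Just outside the limits, 34 regions away from coding genes were called in 3 lists, with a median width of 5.89 kb against 6.67 kb for those in 4 lists. The 16 such regions called in 12 lists had a median width of 16.9 kb, against 9.58 kb for those in 11 lists.

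H3K27me3 is laid down by Polycomb repressive complex 2 and marks the silent regulators of development in embryonic tissues, where it gathers at CpG-rich promoters and spreads into broad domains. Between protein-coding genes the same mark can lie on microRNA genes, on genes of long noncoding RNAs (lncRNAs) and on stretches that hold distal regulatory elements. Gulo encodes the enzyme of the last step of vitamin C synthesis. Vitamin C is a cofactor of dioxygenases that include the TET enzymes and the Jumonji histone demethylases, among them enzymes that remove methyl groups from H3K27. The headfold holds the anterior neural plate with surface ectoderm and mesenchyme.

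Of the 211 regions, 7 overlapped a microRNA gene. The mature microRNAs of 4 of these loci are shown because the loci differ in how many embryos carried a peak, with the seed (bases 2 to 8) in capitals. They are the arms of miR-137, a microRNA of neuronal differentiation (chr3:118433901-118433923, plus strand), of miR-193a (chr11:79712009-79712030, plus strand) and miR-193b (chr16:13449570-13449591, plus strand), and of miR-1a-1, from a locus of cardiac and skeletal muscle (chr2:180389057-180389079, plus strand). Sequences come from RefSeq with GRCm38.p6, the assembly that mm10 stands for.
mmu-miR-137-3p: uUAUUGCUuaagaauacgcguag
mmu-miR-193a-3p: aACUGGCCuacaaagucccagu
mmu-miR-193b-3p: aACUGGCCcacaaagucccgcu
mmu-miR-1a-1-5p: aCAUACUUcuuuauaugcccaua

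The microRNAs miR-193a-3p and miR-193b-3p share the seed ACUGGCC and come from genes on different chromosomes. Over their 22 bases they differ at 3 positions, U9C, A20G and G21C, counted from the 5′ end with the base of miR-193a-3p first.

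Promoters of 3 lncRNA genes are shown because the regions held both CpG-rich and CpG-free starts, in one case within the same region. Each runs from 250 bases before to 50 bases after a RefSeq start, with CG dinucleotides in capitals. Dleu2 (chr14:61682324-61682623, minus strand) had 29 CG dinucleotides, the most in any of the regions. Gm35196 (chr14:61690263-61690562, minus strand) lay in the same region and had 0. Gm41854 (chr19:44672167-44672466, plus strand), from the stretch between Hif1an and Pax2, had 24.
Dleu2: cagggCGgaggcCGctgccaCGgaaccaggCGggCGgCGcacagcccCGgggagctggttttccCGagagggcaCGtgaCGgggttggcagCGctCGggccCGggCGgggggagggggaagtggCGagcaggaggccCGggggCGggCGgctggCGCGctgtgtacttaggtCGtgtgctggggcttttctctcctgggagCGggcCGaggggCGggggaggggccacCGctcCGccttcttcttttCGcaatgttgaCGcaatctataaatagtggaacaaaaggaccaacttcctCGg
Gm35196: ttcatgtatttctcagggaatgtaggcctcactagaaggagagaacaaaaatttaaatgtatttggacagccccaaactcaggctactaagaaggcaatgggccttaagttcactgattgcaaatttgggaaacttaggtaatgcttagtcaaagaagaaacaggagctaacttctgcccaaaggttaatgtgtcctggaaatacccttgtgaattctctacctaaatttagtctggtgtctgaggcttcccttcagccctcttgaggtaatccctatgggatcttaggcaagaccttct
Gm41854: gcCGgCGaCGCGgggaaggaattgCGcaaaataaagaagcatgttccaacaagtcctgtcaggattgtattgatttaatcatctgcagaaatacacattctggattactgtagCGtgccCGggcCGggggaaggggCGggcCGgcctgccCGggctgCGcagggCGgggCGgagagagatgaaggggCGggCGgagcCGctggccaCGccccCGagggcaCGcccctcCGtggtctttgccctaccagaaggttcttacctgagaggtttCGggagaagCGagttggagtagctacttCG

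The lists differed widely in length, and this touches every comparison of embryos that follows. They held 748 to 4726 peaks, with the fewest in B6 without vitamin C replicate 2 and the next fewest (1388) in 129 without vitamin C replicate 2. The median peak width was 1.32 kb in B6 without vitamin C replicate 1 and 1.41 kb in B6 with vitamin C replicate 2, against 3.93 to 8.45 kb in the other 10 lists. Reads per library are unknown, and library numbers ran with the background. A single pregnancy code was shared by the 3 embryos of B6 with vitamin C. In a headfold, fewer cells with the mark and less mark per cell cannot be told apart. Of 10 genes that mark anterior neural plate when expressed, 3 to 9 carried a peak within 1 kb of an end in a given list (median 6), and Hesx1 carried none in any list. Of the marker genes of other tissues, 1 to 5 of 9 for blood and endothelium, 3 or 4 of 10 for extraembryonic tissue and 3 to 6 of 10 for paraxial mesoderm and heart carried a peak in a given list. In the same order, 4, 6 and 4 of these genes carried none in any list, so absence was not particular to the neural plate genes. The part of these tissues in the results was not tested.

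The regions were called in very different numbers across embryos, and mostly in step with the regions at coding genes. In 129 with vitamin C, 195, 101 and 155 of the 211 regions were called, and in 129 without it 191, 49 and 196. In B6 with vitamin C the numbers were 105, 127 and 204, and in B6 without it 53, 15 and 101. The group means were 150.33 ± 47.17, 145.33 ± 83.46, 145.33 ± 51.98 and 56.33 ± 43.1 regions (SD, n = 3), in the same order. Each B6 list with vitamin C held more of the regions than any B6 list without it, although the closest pair was 105 and 101, and in 129 the diets overlapped.

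Among the regions of 4 to 11 lists that an embryo carried, those away from coding genes made up 6.29% to 11.11%. The highest share belonged to the shortest list, in which 15 of the 211 regions (7.11%) and 120 of the 2074 regions at coding genes (5.79%) were called. In the other 11 lists the share of the 211 regions called was lower than that of the coding-gene regions, by 0.80 to 24.70 percentage points. In lists that called a region, peaks covered a median of 65.9% of its merged width. This median ran from 15.3% in B6 without vitamin C replicate 1 to 97.2% in 129 with vitamin C replicate 1.

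**Figure D1:**
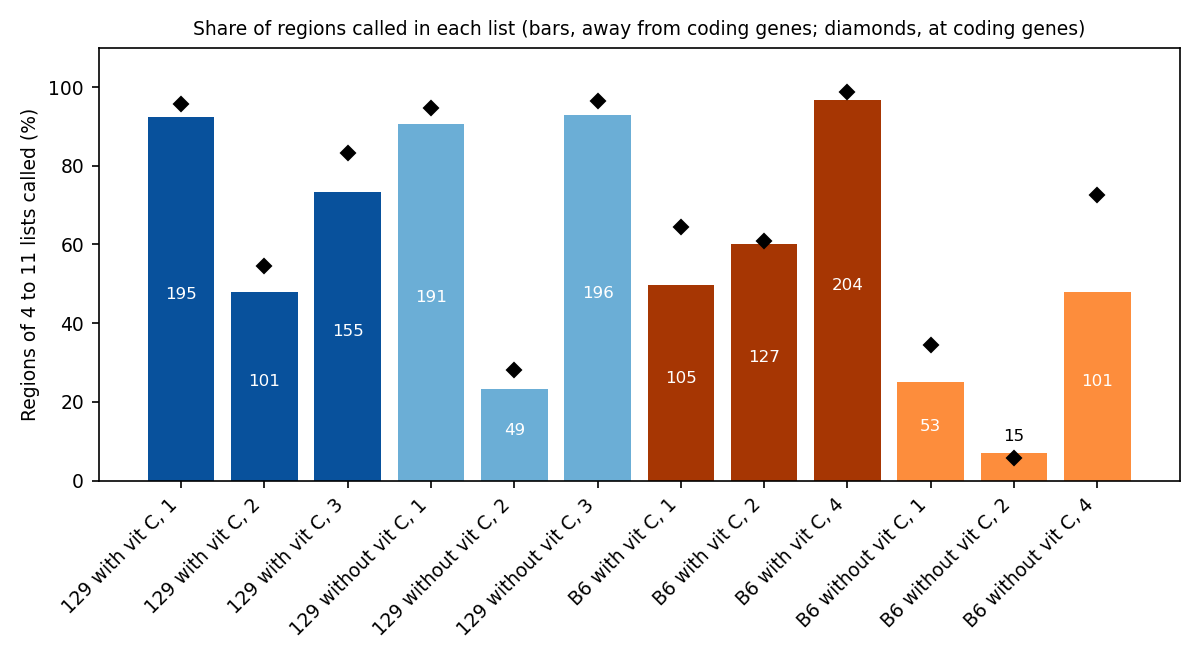
Bars give the percentage of the 211 regions away from coding genes called in each of the 12 lists, with the number of regions printed on or above each bar, and diamonds give the percentage of the 2074 regions at coding genes; dark and light shades are the diets with and without vitamin C, blue is 129 and orange is B6. The bars run from 7.11% in B6 without vitamin C replicate 2 to 96.68% in B6 with vitamin C replicate 4, and the diamonds follow them.

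The regions summed to 2.107 Mb. Their width ran from 0.366 to 33.32 kb with a median of 8.624 kb, against 8.455 kb for the regions of 4 to 11 lists at coding genes. The nearest protein-coding gene lay 5.3 to 696.5 kb away, with a median of 26.8 kb, and 60 regions lay more than 50 kb from any. Many stood near a domain that every embryo carried. Of the 211 regions, 60 (28.44%) lay within 100 kb of a region called in 12 lists, against 10.32% of the regions at coding genes. In 23 gaps between neighbouring coding genes there was more than 1 of the regions, 50 regions in all.

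**Figure D2:**
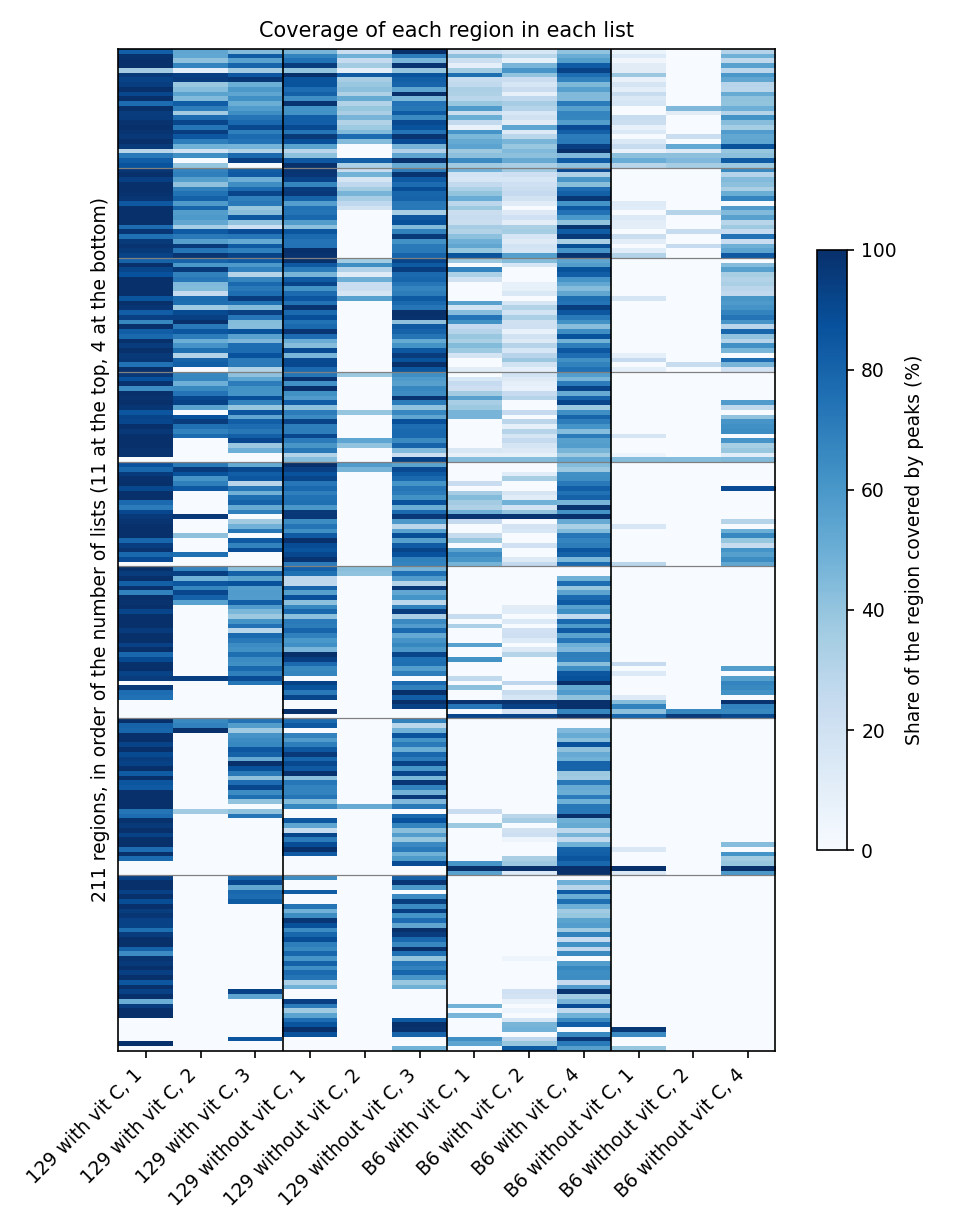
Rows are the 211 regions in order of the number of lists that hold them, columns are the 12 lists, and the shade gives the percentage of the region's width that peaks covered (white, 0%); grey lines part the numbers of lists. Columns are filled to different depths, with 204 regions called in B6 with vitamin C replicate 4 and 15 in B6 without vitamin C replicate 2.

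A noncoding gene was overlapped by 103 of the regions (48.82%), and 108 overlapped no annotated gene. The 153 noncoding genes were mostly lncRNAs, which 80 regions overlapped, followed by pseudogenes (26 regions), microRNAs (7), and transfer RNAs, small nuclear RNAs and RNAs of the miscellaneous class (4 each). A region can overlap more than one kind. Those over lncRNA genes had a median width of 8.92 kb and those over no annotated gene 8.675 kb. More lists of 129 than of B6 held 66 of the 80 and 79 of the 108, beside 73.8% of all 2285 regions of 4 to 11 lists.

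MicroRNAs silence messenger RNAs that match their seed, and several act in neural development. From a list of 80 autosomal microRNA genes with roles in development, 7 lay in the 211 regions, 15 in regions of 12 lists, 4 in regions of 4 to 11 lists at coding genes, 5 in regions of 1 to 3 lists, and 49 in no peak. The 7 were Mir9-2, Mir124a-2, Mir124a-3, Mir137, Mir193a, Mir193b and Mir1a-1. None of the 7 had an unadjusted p under 0.05 for diet or background in the exact permutation test. Only a region of 5 to 7 lists can go under 0.05 in that test. Of these loci only Mir124a-2 (7 lists) was such a region, so for the others the outcome was fixed by the number of lists.

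The gene copies of miR-124, a microRNA of neurons, lay in regions of 12, 7 and 9 lists. Mir124a-1 lay in a region of 12 lists, outside the 211, with peaks over 2.81 to 17.33 kb and a median signal percentile of 80.7. That percentile ranks a peak's maximum signal among all peaks of its own list, and the median is taken over the lists that hold the region. Mir124a-3 (region at chromosome 2, 180886953 to 180898545) was called in 9 lists. Its peaks covered 7.69, 11.51 and 5.08 kb in 129 with vitamin C and 8.66, 0 and 4.78 kb in 129 without it, then 7.23, 2.28 and 7.23 kb in B6 with vitamin C and 0, 0 and 7.03 kb in B6 without it. The 3 lists at 0 kb were the 2 shortest lists and B6 without vitamin C replicate 1, and the diets overlapped in covered length.

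Mir124a-2 (chromosome 3, 17783752 to 17798622) and its host lncRNA Mir124-2hg were called in 7 lists. Here peaks covered 14.87, 6.15 and 0 kb in 129 with vitamin C, 12.45, 0 and 13.17 kb in 129 without it, 3.65, 0 and 10.78 kb in B6 with it and 0, 0 and 9.93 kb in B6 without it. Diets and backgrounds overlapped. The microRNA gene itself lay under a peak in 5 of the 7 lists, against 9 of 9 at Mir124a-3 and 9 of 12 at Mir124a-1.

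Mir137 (chromosome 3, 118429170 to 118437648), whose mature form is printed above, stood 124.5 kb from the nearest coding gene and was called in 10 lists. Its covered lengths were 8.41, 6.34 and 7.78 kb in 129 with vitamin C, 8.21, 4 and 6.75 kb in 129 without it, 3.38, 2.15 and 6.92 kb in B6 with it and 0, 0 and 4.26 kb in B6 without it. All 6 lists of 129 held it, and the 2 lists at 0 kb were both of B6 without vitamin C. The difference in lists between backgrounds had p = 0.4 in the exact permutation test, the smallest p that a region of 10 lists can have.

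The pair that shares a seed differed in the number of embryos. Mir193b (chromosome 16, 13443954 to 13453055), with the lncRNAs Gm53058 and Gm32817, was called in 9 lists and covered over 8.31, 8.77 and 6.27 kb in 129 with vitamin C, 6.48, 2.91 and 8.58 kb in 129 without it, 6.16, 0 and 7.9 kb in B6 with it and 0, 0 and 5.11 kb in B6 without it. Mir193a (chromosome 11, 79707910 to 79715716) was called in 4 lists, those of 129 with vitamin C replicate 1, 129 without vitamin C replicates 1 and 3, and B6 with vitamin C replicate 4, over 4.99 to 7.34 kb. These are the 4 lists that called the most of the 211 regions. The median signal percentile was 51.7 at Mir193b and 11.6 at Mir193a.

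At Mir1a-1 (chromosome 2, 180382649 to 180391158) a region of 8 lists covered the host lncRNA Mir1a-1hg, and 3 lists had the peak over the microRNA gene itself. These were lists of embryos with vitamin C (3 with, 0 without), a count with no test. The region itself was called in 5 lists with vitamin C and 3 without it, at a median signal percentile of 8.2. At the other microRNA genes the counts with and without were 4 and 4 (Mir9-2), 2 and 3 (Mir124a-2) and 2 and 2 (Mir193a). They were 6 and 3 at Mir124a-3, 6 and 4 at Mir137 and 5 and 4 at Mir193b. The neighbouring Mir133a-2, transcribed with Mir1a-1 in muscle, lay in no peak. Mir9-2, one of the genes that give miR-9 of the nervous system, lay with its host C130071C03Rik in the widest of the 211 regions (chromosome 13, 83709806 to 83743128, 33.32 kb), called in 11 lists. The microRNA gene was under a peak in 8 of them.

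**Figure D3:**
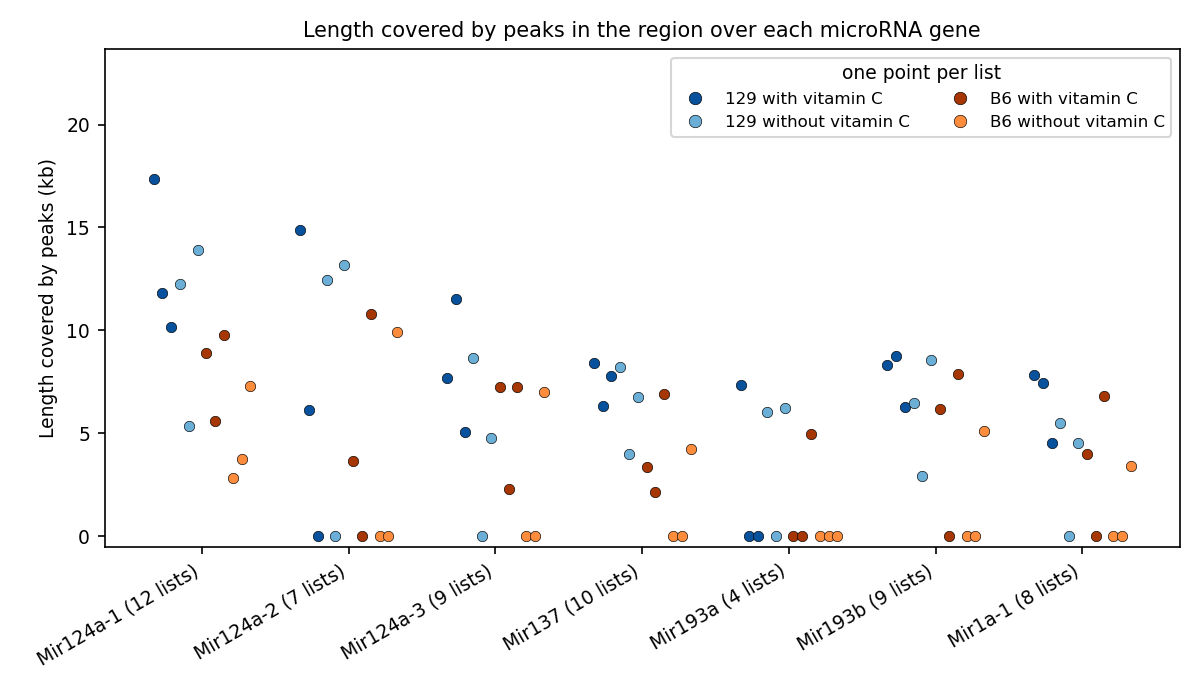
Each point is the length in kb covered by peaks in one list, in the merged region over each microRNA gene named on the horizontal axis, with the number of lists that hold it; colours are the 4 groups. Mir124a-1, in 12 lists, has no point at 0 kb, while Mir193a has 8 lists at 0 kb and 4 between 4.99 and 7.34 kb.

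Several named lncRNA genes lay under the regions. Dleu2, a tumour suppressor locus transcript that hosts microRNAs, lay in a 14.58 kb region of 10 lists (chromosome 14, 61678728 to 61693304) with peaks over 14.2, 9.83 and 11.92 kb in 129 with vitamin C and 14.34, 3.43 and 10.23 kb in 129 without it. In B6 they covered 7.1, 5.4 and 13.11 kb with vitamin C and 0, 0 and 9.59 kb without it. Each of the 6 lists of 129 and the 3 of B6 with vitamin C held it, and apart from the 2 lists at 0 kb the groups overlapped in covered length. Lncpint, a p53-induced lncRNA, lay in a region of 8 lists (11.01 kb), Sox1ot, an overlapping transcript of the neural gene Sox1, in one of 7 (9.04 kb), and Miat, an lncRNA of neural and retinal tissue, in one of 6 (6.61 kb). None of these 4 loci had an unadjusted p under 0.05 for diet or background in the exact permutation test. With 10 lists at Dleu2 and 8 at Lncpint, a p under 0.05 was not possible there.

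Over the lncRNA starts inside the regions, CpG content lay between that of lncRNA genes at large and that of the domains every embryo carried. RefSeq held 73 promoters of 52 lncRNA genes inside the regions, and 81 of the 96 lncRNA genes overlapped (84.4%) had an entry in the promoter table. These windows of 300 bases had a median of 9 CG dinucleotides, with 0 to 29, against 4 over all 11311 lncRNA promoters and 13 over the 262 inside regions of 12 lists. Windows with at least 50% G and C and at least 0.6 of the CG count expected from base composition made up 19.18% of the 73, 12.11% of all and 40.84% of the 262. At least 1 CG was found in 97.3% of the 73 and in 93.3% of all. Promoters of one gene overlap in part, so they are not independent, and the values are a description.

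Among the gaps with several of the 211 regions, the one with the largest summed width held genes of transfer RNAs and of the U1 small nuclear RNA. Between Fcgr1 and BC107364 on chromosome 3, 3 regions summed to 65.2 kb. The first (96327898 to 96360388, 32.49 kb, 11 lists) held the lncRNA Platr30, the transfer RNA genes n-TVcac10, n-TNgtt5, n-TQctg5, n-TEttc3 and n-TGccc5, and Rnu1b1. Its peaks covered 30.94, 11.78 and 20.76 kb in 129 with vitamin C, 20.22, 10.93 and 26.99 kb in 129 without it, 7.28, 4.99 and 21.83 kb in B6 with it and 0, 3.58 and 10.02 kb in B6 without it. The shortest list called it and B6 without vitamin C replicate 1 did not.

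The second region of the run (96373458 to 96397549, 24.09 kb, 10 lists) held Rnu1b2, n-TGccc1 and n-TEttc2, and the third (8.63 kb, 7 lists) n-TNgtt10. Their median signal percentiles were 87.9, 92.2 and 26.7. Transfer RNA genes are repeated near-identically across the genome, and how reads that match several copies were treated is not given in the sources used here. Copies that share reads are therefore uncertain as to place.

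A repeat-rich stretch at the end of chromosome 13 gave 5 of the regions, 3 between B020031M17Rik and Gm36079 and 2 between Gm21188 and Gm20767. Of the 5, 3 overlapped pseudogenes such as Gm20784, Gm21370 and Gm21378, and the same limit holds where such genes share reads with other copies. The widest (120079008 to 120102826, 23.82 kb, 11 lists) was covered over 23.82 kb in B6 with vitamin C replicate 4 and over 0 to 10.62 kb in the other 11 lists. Over all 26 regions that overlapped a pseudogene, the median signal percentile was 59.4, against 36.3 over the 108 with no annotated gene.

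A gene of the developmental lists was the neighbouring coding gene on at least one side of 59 of the regions (27.96%), and the nearest coding gene of 36 (17.06%). For comparison, 384 of 20661 autosomal coding genes (1.859%) were in these lists. Of the length of all gaps between coding genes wider than 10 kb, 7.997% was flanked by one of them, which is a description and no test. There were 51 such neighbours. The regions beside them were more often near a domain of 12 lists, with 35 of 59 (59.3%) within 100 kb against 25 of the other 152 (16.4%). Their median width was 9.95 kb against 8.155 kb, and their median distance to the nearest coding gene 47.5 kb against 23.8 kb.

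By role, 15 of the 59 stood beside genes of mesoderm, somite and muscle (9 of 81 listed genes, such as Foxd1, Foxd2, Foxf1, Tbx3, Tbx4 and Wnt7a). There were 12 beside genes of the dorsal neural tube and neural crest (10 of 43, such as Msx1, Pax7 and Lmx1a) and 11 beside genes of the anterior neural plate and brain (8 of 62, such as Pax2, Barhl2, Sox1 and Nr2f2). Heart and vascular genes had 9 (8 of 29, such as Gata5, Mef2c and Tbx5), neurogenic genes 8 (7 of 68, such as Neurog1 and Lbx1), placode genes 7 (4 of 30), ventral neural tube genes 6 (6 of 35, such as Nkx2-1 and Gli2), endoderm genes 4 (4 of 23) and Hox and ParaHox genes 3 (5 of 50). A gene can stand in more than one list. Single genes named here beyond the rule were chosen after their values were seen.

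A wide region lay beside a regulator of neurons. The region between Tifab and Neurog1, a proneural factor gene, was 29.46 kb wide (chromosome 13, 56207520 to 56236978) and called in 11 lists. It was covered over 29.42, 12.16 and 16.23 kb in 129 with vitamin C, 21.98, 7.33 and 13.6 kb in 129 without it, 6.35, 2.46 and 16.61 kb in B6 with it and 0.96, 0 and 7.96 kb in B6 without it. The lowest 2 lists were the shortest list and a list of short peaks, both of B6 without vitamin C, and the diets overlapped.

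Regions that shared a gap differed in how many embryos carried them. Between Hif1an and Pax2, a gene of the midbrain-hindbrain boundary, the ear and the kidney, 3 regions lay 86.3, 59.8 and 18.6 kb from Pax2 and were called in 4, 10 and 5 lists. The middle one (chromosome 19, 44665342 to 44686765, 21.42 kb), which holds the Gm41854 promoter printed above, was covered over 20.16, 12.12 and 10.56 kb in 129 with vitamin C, 19.8, 3.69 and 17.88 kb in 129 without it, 3.4, 3.38 and 12.94 kb in B6 with it and 0, 0 and 9.51 kb in B6 without it. The one nearest to Pax2 was at 0 kb in 7 lists. Between Trabd2b and Foxd2, a forkhead gene of mesenchyme, 3 regions over the lncRNA Gm33655 lay 253.9, 235.8 and 58.9 kb from Foxd2 and were called in 5, 9 and 7 lists.

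**Figure D4:**
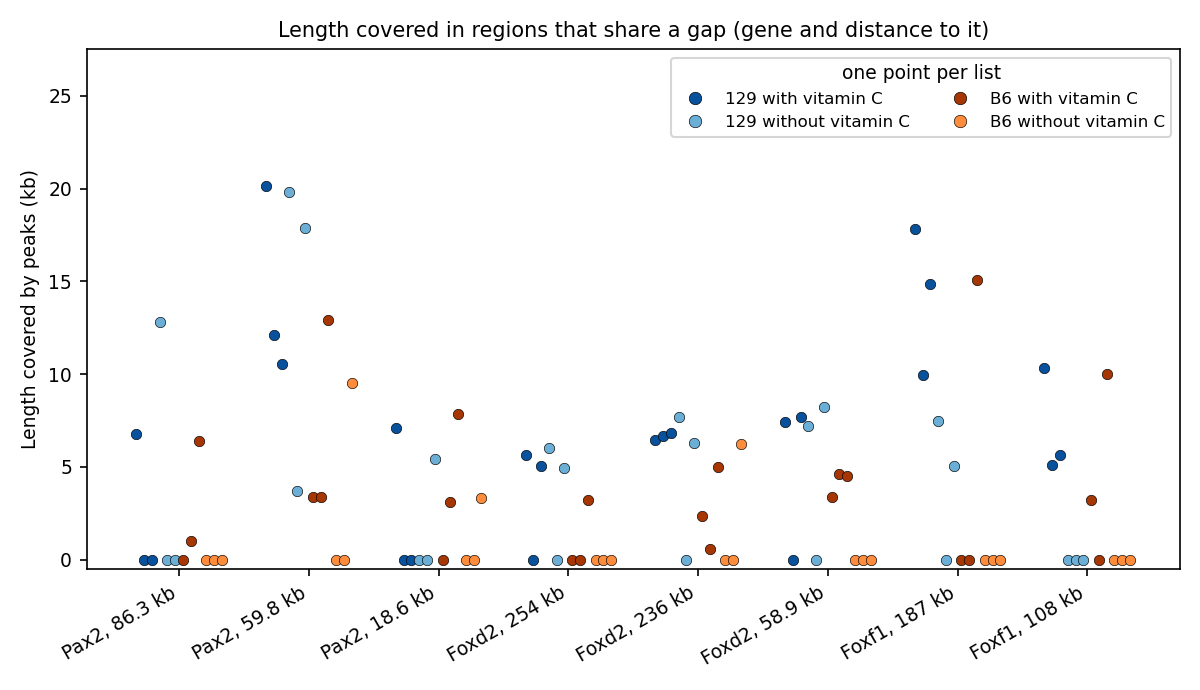
Each point is the length in kb covered by peaks in one list for regions that share a gap between coding genes; the axis gives the neighbouring gene and the region's distance to it, and colours are the 4 groups. The middle region beside Pax2 reaches 20.16 kb and has 2 lists at 0 kb, and the region 108.3 kb from Foxf1 is at 0 kb in all 6 lists without vitamin C.

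Neighbours from the list of imprinted genes stood beside 4 of the regions. A region of 24.28 kb lay 19.1 kb from Rasgrf1 (chromosome 9, 89866090 to 89890373, 9 lists) and one of 12.15 kb between Rtl1 and Dio3 was called in 11 lists. Another of 6.06 kb on the far side of Dio3, the gene of a thyroid hormone deiodinase, was called in 4, and one of 7.18 kb beside Plagl1, a zinc finger gene, in 5. By the rule that chose the regions, a protein-coding imprinted gene could not be overlapped. Of the noncoding genes that the regions overlapped, 0 were in the list of imprinted genes.

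The first comparison was of embryos with and without vitamin C. Most of the regions were called in more lists with vitamin C, as were most regions at coding genes. Of the 211, 161 had more lists with it, 12 had more without it and 38 had as many. Over all 2285 regions of 4 to 11 lists, 77.6% had more lists with vitamin C, 5.38% more without it and 17% as many. The 211 stood near these shares. In B6 the lists with vitamin C held 2397 to 4726 peaks and those without it 748 to 2395, while in 129 the lengths of the diets overlapped (1807 to 2909 and 1388 to 3171). Among regions beside a developmental gene 50 of 59 had more lists with vitamin C and 1 more without it, and among the others 111 of 152 and 11.

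At single regions, diet labels were exchanged within background (400 relabellings), with Benjamini-Hochberg adjustment over 3417 regions called in at least 2 lists. The smallest possible p, 0.005, needs a region called in all 6 lists of one diet and 0 of the other. Only a region of 5 to 7 lists can have a p under 0.05 for diet in this exact permutation test. Of the 211 regions, 33 were called in 5 lists, 32 in 6 and 22 in 7, and the others could not reach that. No region passed an adjusted p of 0.05 in this exact permutation test, and 1 had an unadjusted p under 0.05 (0.0293% of the regions tested), which was one of the 211. At the smallest p alone, at least 342 regions would be needed for an adjusted p under 0.05, and at a larger p more. The difference in diet effect between backgrounds had an unadjusted p under 0.05 at 2 regions (0.0585%), 0 of them among the 211, and 0 after adjustment in the same test. The diet count among the 211 was 6 when replicate 1 or 3 of 129 without vitamin C was left out, and 5, 2 and 2 for replicates 2, 1 and 3 of 129 with it. It was 3 and 2 for replicates 1 and 2 of B6 with vitamin C and 2 for replicate 4 of B6 without it. The count of 0 became 1 when replicate 1 or 3 of 129 with vitamin C was left out, and 2 when replicate 2 of 129 without it or replicate 1 of B6 with it was.

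The one region (chromosome 8, 120962106 to 120976089, 13.98 kb) lay between Irf8 and Foxf1, a forkhead gene of lateral mesoderm and its derivatives, 108.3 kb from Foxf1, and overlapped no annotated gene. Peaks covered 10.32, 5.09 and 5.67 kb in 129 with vitamin C and 0, 0 and 0 kb in 129 without it. In B6 with vitamin C they covered 3.22, 0 and 10.01 kb, and in B6 without it 0, 0 and 0 kb. The 5 lists with a peak were all of embryos with vitamin C (exact permutation p = 0.02, two-sided, Benjamini-Hochberg adjusted p = 1). Its median signal percentile was 28.9.

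When weaker peaks (below the median maximum signal of their list) were dropped, or when 50% of a region had to be covered, 0 of the 211 had an unadjusted p under 0.05 for diet in the exact permutation test. Another region of the same gap (chromosome 8, 120879600 to 120897641, 18.04 kb) overlapped Gm26878 and was called in 6 lists. It was covered over 17.82, 9.97 and 14.85 kb in 129 with vitamin C, 7.48, 0 and 5.06 kb in 129 without it, 0, 0 and 15.07 kb in B6 with it and 0 kb in the 3 B6 lists without it. In 129 the lists with vitamin C all lay above those without it. Its exact permutation p for diet was 0.5 over both backgrounds, the smallest that calls in 5 lists of 129 and 1 of B6 allow.

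In B6, 15 of the regions (7.11%) were called in the 3 lists with vitamin C and in 0 of the 3 without it. The 3 lists with vitamin C share a single pregnancy code, so diet in B6 cannot be told apart from pregnancy. Over all 2285 regions of 4 to 11 lists this share was 3.37%, and over those at coding genes 2.99%. The other way there were 0, as over the 2285 (0%). With 3 against 3 the smallest possible p is 0.1, so no test was made. The 15 had widths of 1.76 to 17.25 kb and a median signal percentile of 33.9, and 4 stood beside a developmental gene. In 129 they were called in 1 to 6 lists, with 7 in more lists with vitamin C, 1 in more without it and 7 in as many.

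The widest of the 15 (chromosome 13, 119986012 to 120003263) lay in the pseudogene-rich stretch of chromosome 13. Peaks covered 2.66, 2.19 and 8.05 kb in B6 with vitamin C and 0 kb in the 3 lists without it, and 15.09, 11.54 and 9.26 kb against 16.99, 0 and 10.11 kb in 129. Others were a region between Klhl36 and Usp10 (13.24 kb), one between Dnajb8 and Eefsec (13.24 kb) and one between Uncx and Micall2 (10.33 kb). The last lay 116.6 kb from Uncx, a homeobox gene of somites and neurons, and 31.5 kb from Micall2. Another lay between Trabd2b and Foxd2 (9.52 kb). One between Trim29 and Nectin1 (9.3 kb) was called in all 6 lists of 129.

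The count of 15 was 1 when 50% of a region had to be covered, 1 with lists of equal length (the 748 peaks of largest total signal in each) and 6 when weaker peaks were dropped. Leaving out 1 list with vitamin C gave 37 (B6 replicate 1) or 24 (B6 replicate 2), and leaving out 1 list without it gave 36 (B6 replicate 4). In 129, 2 of the regions (0.948%) separated the diets this way, against 0.175% of the 2285. The other way there were 0, against 0.0438%. The 2 were the region beside Foxf1 given above and one over Gm31194 and Gm31317 (chromosome 11, 98293117 to 98300357). The latter region lay 12 kb from Cdk12 and 25.1 kb from Neurod2, a neuronal factor gene. It was covered over 6.9, 6.8 and 6.44 kb in 129 with vitamin C and 0 kb in the 3 lists without it. In B6 it was covered over 1.9, 0 and 6.3 kb with vitamin C and 0, 0 and 4.1 kb without it, so there the diets overlapped. The 129 count was 8 when replicate 2 of the lists without vitamin C was left out and 4 when replicate 2 of those with it was.

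The second comparison was of the backgrounds, which cannot be told apart from library numbers. Of the 211, 164 (77.7%) had more lists of 129, 21 (9.95%) more lists of B6 and 26 (12.3%) as many. Over all 2285 regions of 4 to 11 lists these shares were 73.8%, 7.88% and 18.3%. In the exact permutation test with background labels exchanged within diet, 0 regions passed an adjusted p of 0.05, and 19 of 3417 (0.556%) had an unadjusted p under 0.05. Of these 19, 9 were among the 211 and the other 10 among the 2074 regions of 4 to 11 lists at coding genes. Toward 129 there were 6 of the 211 (2.84%), against 0.439% of the regions tested, and toward B6 3 (1.42%), against 0.117%. Among the 2074 regions at coding genes, chosen by the same number of lists, the shares were 0.434% and 0.0482%. The 9 met the limit on lists through a single background, so these shares are a description. In this test too, only regions of 5 to 7 lists could have a p under 0.05. The 9 stood beside no gene of the developmental lists, and 2 of them overlapped pseudogenes. The count was 16 when replicate 2 of 129 without vitamin C or replicate 4 of B6 with it was left out, and 5 with lists of equal length, of which 1 was among the 9.

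A region between Ust and Sash1 (chromosome 10, 8547886 to 8551449, 3.56 kb) was called in the 6 lists of 129 and in 0 of B6. Peaks covered 3.38, 3.35 and 2.89 kb in 129 with vitamin C, 2.68, 1.44 and 2.68 kb in 129 without it and 0 kb in the 6 lists of B6 (exact permutation p = 0.005, the smallest possible, adjusted p = 1). Its median signal percentile of 98.9 put it among the strongest peaks of the lists that held it. No annotated gene lies there.

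The same pattern was found over the pseudogenes Gm3715 and Gm5456 on chromosome 14 (7241891 to 7247362, 5.47 kb). There peaks covered 5.47, 3.7 and 2.28 kb in 129 with vitamin C, 4.47, 2.31 and 2.6 kb in 129 without it and 0 kb in the 6 lists of B6 (exact permutation p = 0.005, the smallest possible). Its median percentile was 98.6. Where such genes share reads with other copies, the place of the reads is uncertain.

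The reverse was found over Rn18s-rs5, a sequence related to 18S ribosomal RNA, and AY036118, on chromosome 17 (39841456 to 39848829, 7.37 kb). The 6 lists of 129 were at 0 kb. Peaks covered 6.74, 6.78 and 7.37 kb in B6 with vitamin C and 5.83, 7.03 and 6.67 kb in B6 without it, so the 2 diets of B6 overlapped (exact permutation p = 0.005 for background, the smallest possible, adjusted p = 1). Even the shortest list called it, over 7.03 kb. Its median percentile was 99.5. Ribosomal RNA genes are present in many copies, and whether the number of copies or the assembly moves with the result was not tested.

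The other 6 regions had an exact permutation p of 0.02. Toward 129 these were regions between Ctnnd2 and Dap (7.53 kb) and between Slc52a2 and Adck5 (10.99 kb), each in 5 lists of 129 and 0 of B6, and a pair between Dynlt1b and Gm2808 on chromosome 17 (9.72 and 5.29 kb), each in 6 lists of 129 and 1 of B6. The pair was called in the same 7 lists, and the list of B6 was that of B6 with vitamin C replicate 4, the one that called the most regions. Toward B6 they were a region between Ahdc1 and Wasf2 (9.08 kb) and one of 0.37 kb between Fbxo15 and Neto1, which lay 696.5 kb from the nearest coding gene, the farthest of the 211. Each was in 5 lists of B6 and 0 of 129.

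A looser rule took at least 5 of 6 lists of one background and at most 1 of 6 of the other. By it, 12 of the regions (5.69%) were called mostly in 129 and 6 (2.84%) mostly in B6. Over all 2285 regions of 4 to 11 lists these shares were 1.75% and 0.481%. Of the 12, 2 stood beside a developmental gene, and of the 6, 0 did. Together the 18 became 35 when replicate 2 of 129 with vitamin C was left out, 35 when replicate 2 of 129 without it was, 33 when 50% of a region had to be covered, 9 when weaker peaks were dropped and 6 with lists of equal length.

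Some of the regions called more often in B6 were narrow or ranked high by signal. Of the 21 with more lists of B6, 7 were narrower than 2.5 kb and 12 had a median percentile of at least 95. Of the 9 regions narrower than 2.5 kb, a limit set after the widths were seen, 7 were in more lists of B6 and 1 in more of 129, while of the other 202, 14 were in more lists of B6 and 163 in more of 129. The narrow regions had median signal percentiles of 78 to 99.6 (median 98.8), and the others a median of 36.35. Among the 15 regions with a median percentile of at least 95, 12 were in more lists of B6 and 3 in more of 129, and 0 stood beside a developmental gene. Examples are a region of 1.11 kb over Gm36264 on chromosome 13, in 6 lists of B6 and 2 of 129, and one of 0.72 kb between Pex2 and 1700008P02Rik, in 5 lists of B6 and 1 of 129.

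In 2 B6 libraries peaks were short in general, and the part of this in the pattern was not tested. Without both of these lists, 8 of the 211 had an unadjusted exact permutation p under 0.05 for background. Of these, 7 were among the 9 given above. The region over Gm36264 was covered over 0.48, 0.48 and 0.58 kb in B6 with vitamin C and 0.48, 0.48 and 0.49 kb in B6 without it. It was at 0 kb in 129 with vitamin C and at 0.48, 0 and 1.03 kb in 129 without it. Each list of B6 thus held a peak of similar length (exact permutation p = 0.05 for background, the smallest that a region of 8 lists can have). Width and rank of the 211 regions are drawn together with the background that held more lists.

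**Figure D5:**
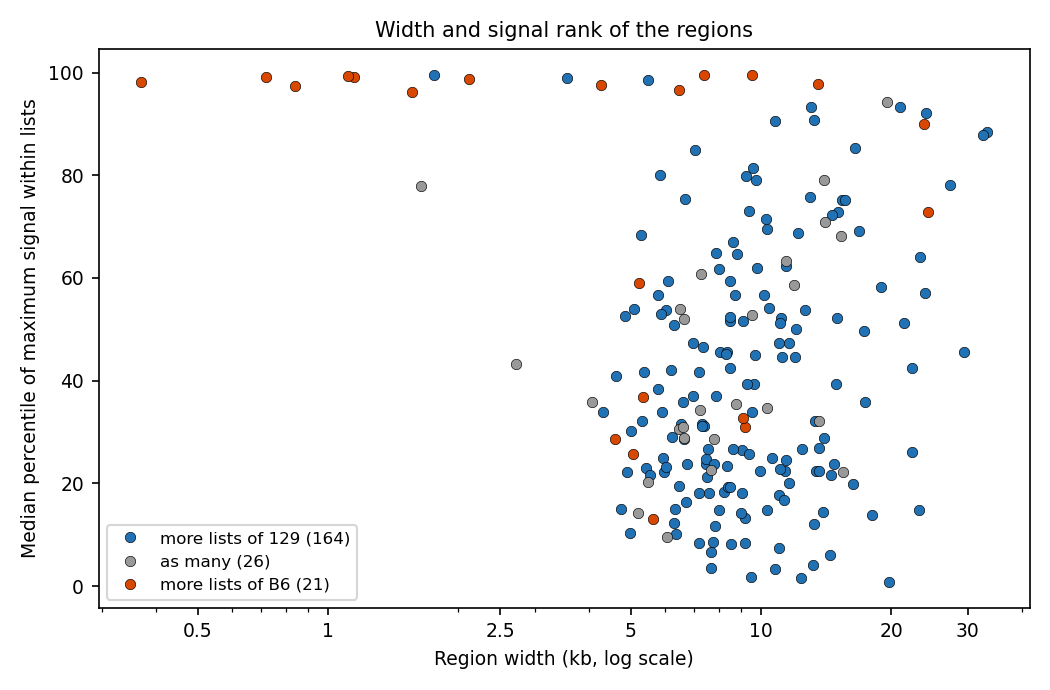
Each point is one of the 211 regions, by merged width in kb (log scale) and by the median percentile of its maximum signal among the peaks of the lists that hold it; colours give which background had more lists. A band of 15 regions, 8 of them narrower than 2.5 kb, sits at percentiles of 95 and above, and 12 of the 15 have more lists of B6, while most of the wider regions have more lists of 129.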

How the data were processed

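H3K27me3 CUT&Tag of single headfolds gave 12 peak lists, 3 per background and diet. Per the submitters' processing notes, the authors used cutadapt, Bowtie2, Picard and SEACR with the build mm10. The sources used here do not give their versions, their settings or the role of IgG. A deposited list gives the total and maximum signal of each peak (31753 peaks in all) as the authors' unscaled signal, so signal was used only to rank peaks within a list. Depth per library is unknown, and the precision it gives cannot be stated. All other columns give positions, and 0 columns of per-sample values were left unmapped.

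Regions were built and tested as described in the text, with Python 3.11.15, NumPy 2.4.6, pandas 2.3.3 and SciPy 1.17.1. Genes came from the RefSeq table of GRCm38.p6, which is of C57BL/6J and carries no strand. Coordinates are 1-based. Tests were exact permutation tests of the share of lists with a peak (threshold 0.05). A run on simulated calls planted only all-or-none differences by background, so it checked the calculation and not the power for weaker differences. P-values treat embryos as independent. The members and lists were chosen with earlier results of these data known. Named are the 10 widest regions, the 10 per direction with the largest difference in lists between diets and between backgrounds, those all-or-none by diet within a background (the 10 widest where there were more than 12), the 10 farthest from a coding gene, the 5 fullest gaps, those over microRNA, listed lncRNA or ribosomal genes, the 10 widest over other noncoding genes and the 15 widest beside a developmental gene. One item that this rule names is not reported here. Alternatives were stricter peak filters, lists of equal length, other limits for the choice of regions and the omission of single libraries. Leaving out the 2 shortest lists, or both lists of short peaks, and the 2 shares of regions under other limits were added after the lists had been seen.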

Additional observations from a re-analysis of the deposited data

How the results depend on the processing

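No paired analysis was possible because the labels give no replicate numbers, and those used here only name the embryos. Dropping peaks below their list's median maximum signal left 0 regions for diet, 6 and 0 all-or-none by diet in B6 and 129, and 9 by the looser background rule. With 50% of a region to be covered these were 0, 1, 3 and 33. Lists of equal length gave 5 regions for background (1 of them among the 9), 1 and 1 all-or-none in B6 and 129, 6 by the looser rule, 1 for diet that was another region, and a mean of 24.25 regions per list against 124.3.

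Single omissions gave 1 to 6 regions for diet, 9 to 16 for background, 0 to 2 for the difference in diet effect, 15 to 37 and 2 to 8 all-or-none in B6 and 129, and 18 to 35 by the looser rule. The main calls (1 for diet, 9 for background) were kept in each of the 12 omissions. Their patterns of calls fixed this outcome whichever list was left out, so it says nothing of how stable they are. Without the 2 shortest lists there were 0 for diet, 8 all-or-none in 129 and 36 by the looser rule. The calls then left at the main diet region could not give an exact permutation p under 0.05. Without both lists of short peaks there were 26 all-or-none in B6. Averaging the embryos of a pregnancy leaves B6 with vitamin C a single value, so no count is given for it. Adjusted counts were 0 under every alternative run. The cause of these changes was not tested.

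At 50 kb from coding genes 60 regions remained, 45% with a developmental neighbour, and with 2 to 12 lists there were 394, 40.6% over a noncoding gene. Of the values for single named regions 2963 kept their side of the threshold, 38 passed it and 23 no longer did, and 0 reversed. List length limits all of these, since a region without a peak may be one not called at that depth.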
